A study of Mus musculus with 37 samples.

Results

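Cortex of mice with 1 null allele of Hdac4 (Hdac4HET) was compared with cortex of wild-type (WT) mice, with no Huntington's disease transgene in either group. The members were the 9 arrays labelled Hdac4HET and the 9 labelled WT, 18 of the 37 arrays of the series, and every one of the 45037 probe sets was tested. The mice were 9 wk of age, of both sexes, on a mixed CBA X C57Bl/6 strain, and came from crossing R6/2 males to Hdac4HET females. The null allele had been made on a 129S background, so that 129S DNA close to Hdac4 is inherited with it, and the effects of the allele and of that DNA cannot be told apart. The other 19 arrays were R6/2, which carry a mutant exon 1 fragment of human HTT, and Dble::R6/2, which carry that transgene and 1 null Hdac4 allele. They entered the estimate of the spread and gave a comparison of the same allele in which no array is shared with Hdac4HET and WT. All changes below are differences of mean log2 level, Hdac4HET minus WT, with the standard error (SE) of the limma fit and a p adjusted by Benjamini-Hochberg over all probe sets. The words rose and fell are used of probe sets with an adjusted p under 0.05, and a probe set was called where in addition the change was over 1.3-fold (0.38 on the log2 scale).

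HDAC4 is a class IIa histone deacetylase with little enzymatic activity of its own, which binds transcription factors of the MEF2 family and represses their targets in muscle, bone and neurons. It moves between nucleus and cytoplasm: phosphorylation by CaM kinases and salt-inducible kinases creates binding sites for 14-3-3 proteins, which hold it in the cytoplasm. Mice that lack both copies die soon after birth, which is why carriers of a single null allele were used.

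Some arrays stood apart from their labels or from the rest. The mean log2 level of 27 olfactory bulb markers lay between 6.46 and 6.80 on the WT arrays, and 6 of the 9 Hdac4HET arrays were above every WT array. These were replicates 1 (8.19), 4 (7.14), 5 (7.99), 6 (8.12), 7 (7.92) and 9 (7.06), called the raised-bulb arrays below, together with Dble::R6/2 replicate 10 (7.20). Hdac4HET replicates 2 (6.49), 3 (6.72) and 8 (6.54) lay in the WT range. Xist and Y-linked levels went against the labelled sex on WT replicate 9 and Hdac4HET replicates 1, 5 and 9, and in the other genotypes on Dble::R6/2 replicates 1 and 9. Of these, Hdac4HET replicates 5 and 9 were high for both Xist and the Y-linked genes, and all 3 Hdac4HET arrays were also raised-bulb arrays. Results are therefore given with all arrays and again without the raised-bulb arrays, which leaves 9 WT and 3 Hdac4HET.

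**Figure D1:**
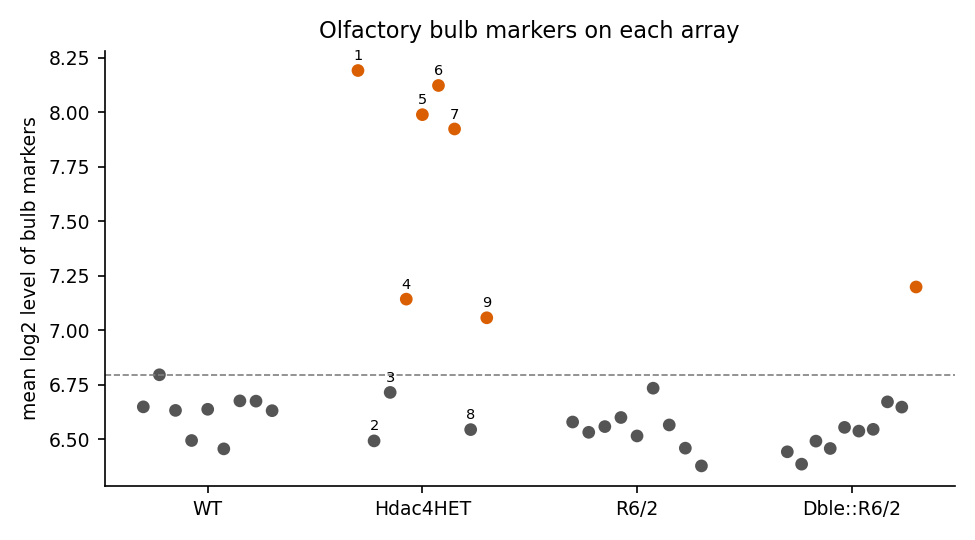
Mean log2 level of the olfactory bulb markers on each array, by genotype; orange points are the arrays above every WT array (dashed line), and the small numbers are Hdac4HET replicate numbers. Hdac4HET replicates 1, 5, 6 and 7 sit between 7.92 and 8.19, replicates 4 and 9 near 7.1, and replicates 2, 3 and 8 with the WT arrays.

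Hdac4 itself was lower in every Hdac4HET array than in any WT array. Its brightest probe set ran from 8.28 to 8.64 in WT with a median of 8.50, and from 7.80 to 8.02 in Hdac4HET with a median of 7.91. Hdac4 fell by 0.56 (SE 0.04, limma adjusted p = 7.73e-12), which is 1.48-fold, and the groups did not overlap. The second probe set fell by 0.43 (limma adjusted p = 5.17e-08), from 8.03 to 8.39 in WT to between 7.70 and 7.95 in Hdac4HET. A dimmer probe set fell by 0.25 (limma adjusted p = 0.0161) with overlapping groups. The fall of the brightest probe set was as large without the raised-bulb arrays, at -0.53 (limma adjusted p = 2.24e-05), and each raised-bulb array of Hdac4HET also lay below every WT array.

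The Hdac4 promoter is shown because this is the gene whose allele was removed; the sequence is RefSeq's for GRCm38.p6, minus strand, chr1:92180292-92180591, 250 bases before to 50 after the start. It held neither of the motifs searched below, so that none of its letters is in capitals.
Hdac4: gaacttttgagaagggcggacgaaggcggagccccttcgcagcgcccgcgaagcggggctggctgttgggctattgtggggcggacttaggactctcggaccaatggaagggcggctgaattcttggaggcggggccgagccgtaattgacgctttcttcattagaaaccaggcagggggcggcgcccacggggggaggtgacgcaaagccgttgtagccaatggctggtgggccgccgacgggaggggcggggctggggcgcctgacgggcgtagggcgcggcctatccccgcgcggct

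None of the other histone deacetylase genes was called, beside 67 of all 18193 genes (0.368%) with 1 probe set per gene. All 13 on a list kept apart from class IIa, and not made of Hdac genes alone, were measured. Their median change was -0.01, and the changes ran from -0.04 to 0.16, the highest being that of Hdac8 (limma adjusted p = 0.196). Hdac5, Hdac7 and Hdac9, the other class IIa members, are not on that list and had changes of 0.07, -0.01 and 0.02. Of the proteins that bind, phosphorylate or carry HDAC4, 17 of 20 were measured and 0 were called, with a median change of 0.00 and a range of -0.09 to 0.23. The MEF2 factors and their known neuronal targets gave 0 called of 14 measured, with a median of 0.00 and a range of -0.04 to 0.11. Mef2a, Mef2c and Mef2d, the MEF2 factors of cortical neurons, had changes of 0.03, -0.04 and 0.02. Among the targets, Bdnf, a neurotrophin, had a change of -0.04, Arc, an activity-induced synaptic gene, 0.08, and Homer1, a postsynaptic scaffold, 0.05. The paper holds that the arrays carried no Bdnf probe sets. By quantitative PCR at a later age, it reports a higher level of the Bdnf coding exon with reduced Hdac4 and no transgene. Of the muscle genes that class IIa deacetylases repress in muscle, 1 of 16 was called, beside 0.346% of all genes called higher: Tnnt1, a slow-muscle troponin, rose by 0.41 (limma adjusted p = 0.0233), and its change was 0.26 without the raised-bulb arrays.

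Beside Hdac4, Prm1 and Pam were the genes called in every setting that left out arrays standing apart. Prm1 encodes protamine 1, the basic protein that replaces histones in sperm heads. On the first of its probe sets, Prm1 ran from 2.68 to 3.07 in WT with a median of 2.93, and from 3.91 to 4.68 in Hdac4HET with a median of 4.21. All WT arrays lay under 3.22, the level below which the lowest 5% of probe sets fall, and all Hdac4HET arrays above it. The difference of 1.41 (SE 0.08, limma adjusted p = 3.47e-15) is 2.66-fold in the signal of this probe set, from WT levels at the low end of the array. A second Prm1 probe set ran from 2.72 to 3.05 in WT and from 3.97 to 5.01 in Hdac4HET, a rise of 1.55 (SE 0.09, limma adjusted p = 5.41e-15) or 2.94-fold in its signal. The brightest Prm1 probe set was not called, with levels of 6.75 to 7.02 in WT and 6.94 to 7.23 in Hdac4HET and a change of 0.12 (limma adjusted p = 0.163). The 3 probe sets for Prm1 thus did not report the same change, and all end in _x_at, the mark for probes that may also bind other transcripts. The first 2 Prm1 probe sets gave 1.56 and 1.3 without the raised-bulb arrays.

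Pam encodes the enzyme that amidates the C-terminus of neuropeptides, and lies on chromosome 1 between 5 and 10 Mb from Hdac4. It ran from 9.51 to 9.81 in WT with a median of 9.71, and from 10.08 to 10.32 in Hdac4HET with a median of 10.16. Every Hdac4HET array was above every WT array. Pam rose by 0.48 (SE 0.04, limma adjusted p = 2.67e-09), and its change was 0.54 (limma adjusted p = 2.61e-05) without the raised-bulb arrays.

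The same allele on the R6/2 background gave an independent set of arrays for these genes. Between Dble::R6/2 and R6/2, 121 probe sets were called (0.269%), and 6 were called with the same sign as in Hdac4HET against WT, which is 4.96% of those 121 and 4.58% of the 131 called without the transgene. They were the 2 probe sets of Hdac4, the 2 of Prm1, Pam and Abi3bp. The brightest Hdac4 probe set ran from 8.31 to 8.55 in R6/2 and from 7.70 to 7.98 in Dble::R6/2, a change of -0.63. The first Prm1 probe set ran from 2.68 to 3.18 in R6/2 and from 4.33 to 4.78 in Dble::R6/2, a change of 1.62, and its second probe set gave 1.83. Pam ran from 9.46 to 9.83 in R6/2 and from 10.25 to 10.55 in Dble::R6/2, a change of 0.73. None of these 3 pairs of ranges overlapped, as was the case without the transgene.

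Abi3bp, an extracellular matrix protein gene, behaved differently. It ran from 6.75 to 7.72 in WT with a median of 7.22, and from 7.45 to 8.53 in Hdac4HET with a median of 8.0, so that the groups overlapped. Abi3bp rose by 0.81 (SE 0.14, limma adjusted p = 0.00307), and by 0.57 (limma adjusted p = 0.0272) in Dble::R6/2 against R6/2, where its mean level in R6/2 was 5.59. Without the raised-bulb arrays its change in Hdac4HET was 0.71 (limma adjusted p = 0.368). A probe set for Ampd2, an AMP deaminase, was called in opposite directions, at 0.39 without and -0.45 with the transgene.

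**Figure D2:**
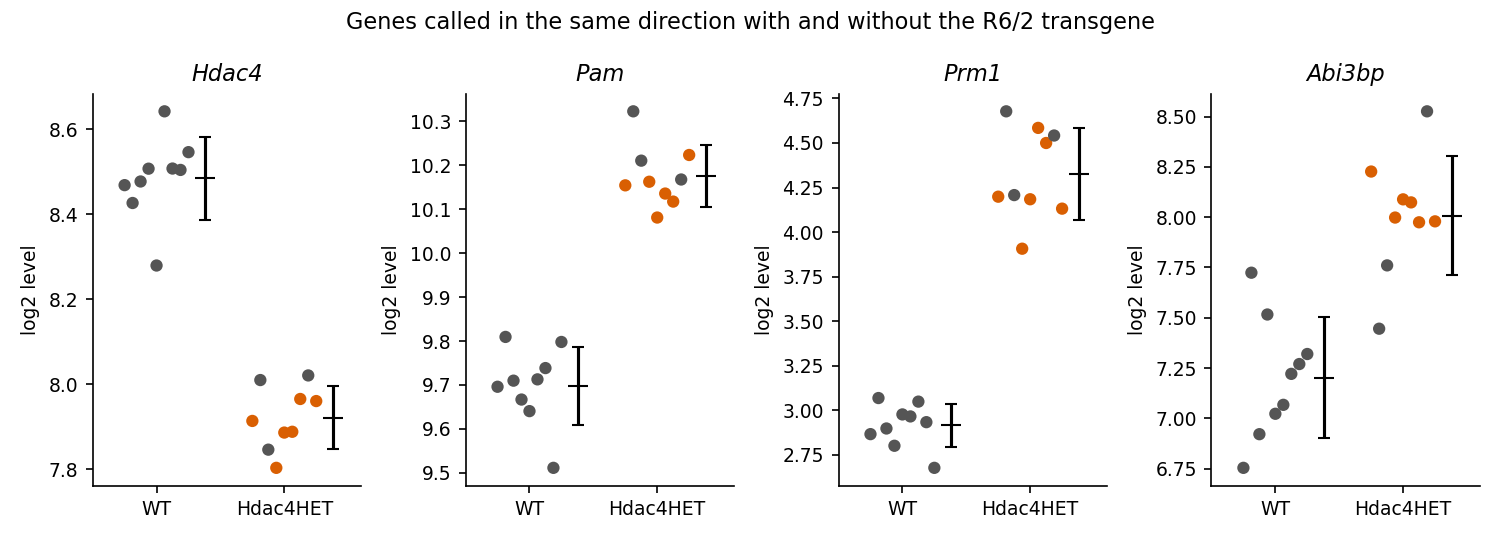
Log2 level of Hdac4, Pam, Prm1 (its first probe set) and Abi3bp on each WT and Hdac4HET array; orange points are raised-bulb arrays and the bars are mean ± SD (n = 9). Hdac4 falls and Pam and Prm1 rise with no overlap, in orange and grey points alike, and the Abi3bp groups overlap between 7.45 and 7.72.

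Genes close to Hdac4 on chromosome 1 were examined because the null allele brings linked DNA with it. With no threshold on fold, 643 probe sets of the whole array passed the adjusted p (1.43%), 427 higher (0.948%) and 216 lower (0.48%). Within 5 Mb of Hdac4, Hdac4 itself left out, 2 probe sets were higher and 5 lower of 161 (4.35%). Between 5 and 10 Mb, 4 were higher and 1 lower of 93 (5.38%), and between 10 and 20 Mb, 0 of 201 passed. On the rest of chromosome 1 the share was 1.01% of 1690 and on the other chromosomes 1.56% of 32593. In Dble::R6/2 against R6/2 the shares were 4.35% within 5 Mb, 3.23% from 5 to 10 Mb, 4.48% from 10 to 20 Mb and 2.15% on the other chromosomes, where 1.99% of all probe sets passed. In Hdac4HET without the raised-bulb arrays they were 0.621%, 1.08%, 0% and 0.0092%, with Stk25 the 1 probe set within 5 Mb and Pam the 1 from 5 to 10 Mb.

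Stk25, a Golgi-associated serine/threonine kinase, had the lowest adjusted p of these neighbours. It ran from 11.34 to 11.49 in WT with a median of 11.44, and from 11.02 to 11.18 in Hdac4HET with a median of 11.12. Stk25 fell by 0.31 (SE 0.03, limma adjusted p = 7.95e-11), below the fold threshold, with no overlap between the groups. It was at -0.30 (limma adjusted p = 2.24e-05) without the raised-bulb arrays and at -0.25 in Dble::R6/2 against R6/2. Kif1a, a motor that carries synaptic vesicle precursors along axons, ran from 9.25 to 9.47 in WT and from 8.95 to 9.25 in Hdac4HET and fell by 0.29 (SE 0.04, limma adjusted p = 6.44e-05). Kif1a was at -0.22 (limma adjusted p = 0.251) without the raised-bulb arrays. Also within 5 Mb, Usp40 and Inpp5d, a deubiquitinase and an inositol phosphatase, fell by 0.29 (limma adjusted p = 0.026) and 0.21 (limma adjusted p = 0.033), and Ramp1, a receptor partner for CGRP, rose by 0.26 (limma adjusted p = 0.0171). Further out, Irs1, an insulin receptor substrate, rose by 0.16 (limma adjusted p = 0.0151). Armc9 and Klhl30 rose by 0.50 and 0.90 with all arrays, and their changes were 0.07 and 0.03 without the raised-bulb arrays.

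Over all probe sets, 131 were called (0.291%), 124 higher (0.275%) and 7 lower (0.0155%), from 85 and 5 genes. The 67 genes called with 1 probe set per gene were 63 higher (0.346%) and 4 lower (0.022%). Without the raised-bulb arrays 4 probe sets were called (0.00888%): 1 of Hdac4, 1 of Pam and 2 of Prm1, with 3702 at an unadjusted p under 0.05 and 7 at an adjusted p under 0.05 of any size. With the Hdac4HET and WT arrays alone, whose spread is then not shared with the other genotypes, 26 were called, and without the arrays against their labelled sex, those of Dble::R6/2 included, 6 were called. Leaving out a single array gave between 73 (without Hdac4HET replicate 1) and 192 (without Hdac4HET replicate 2). Of the 124 called higher, 109 had a smaller change without the raised-bulb arrays and 22 were at or under 0, and their median change went from 0.55 to 0.12. The median SD of these 124 was 0.19 over the WT arrays and 0.42 over the Hdac4HET arrays, against 0.13 and 0.12 for all probe sets. Hdac4HET replicate 1 was the highest array for 60 of them, replicate 7 for 19 and replicate 6 for 17. In whole tissue, more cells of a type and more RNA per cell cannot be told apart.

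The largest rises were of genes of the olfactory bulb. The markers of its projection neurons, interneurons and sensory axons given here are the 27 whose mean picked the raised-bulb arrays. Their smaller changes without those arrays therefore follow from that choice and are not a separate result. Among the genes that mark the projection neurons of the bulb, the mitral and tufted cells, 5 of 6 were called higher, beside 0.346% of all genes. Their median change was 1.35 with all arrays and 0.07 without the raised-bulb arrays. The mean of this list ran from 5.09 to 5.42 in WT and from 5.2 to 7.59 in Hdac4HET with a median of 6.27. Cdhr1, a protocadherin of mitral cells, ran from 6.54 to 7.04 in WT with a median of 6.78, and from 6.14 to 10.04 in Hdac4HET with a median of 8.39. Hdac4HET thus held both the lowest and the highest of the 18 values for Cdhr1. It rose by 1.63 (SE 0.36, limma adjusted p = 0.0171), and its change was -0.22 without the raised-bulb arrays. Doc2g ran from 5.59 to 6.17 in WT and from 5.99 to 9.17 in Hdac4HET, rose by 1.58 (SE 0.30, limma adjusted p = 0.00596) and had a change of 0.09 without the raised-bulb arrays. The T-box factors Tbx21 and Eomes, which specify these neurons, rose by 1.40 (limma adjusted p = 0.0104) and 1.3 (limma adjusted p = 0.00938), with changes of 0.05 and 0.01 without those arrays. Nmb, the peptide neuromedin B, rose by 1.03 (limma adjusted p = 0.0032), with 0.17 without them. Lhx1 was the member not called, at 0.05.

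Interneurons of the bulb gave 9 of 18 measured genes called higher, beside 0.346% of all genes, with a median change of 0.50 and of -0.05 without the raised-bulb arrays. Th, tyrosine hydroxylase of the dopaminergic periglomerular cells, ran from 5.53 to 6.45 in WT with a median of 5.88, and from 5.71 to 8.82 in Hdac4HET with a median of 7.19. Th rose by 1.42 (SE 0.31, limma adjusted p = 0.0168), and its change was -0.03 without the raised-bulb arrays. Sp8, a zinc finger factor of these cells, ran from 4.12 to 4.65 in WT and from 4.35 to 7.64 in Hdac4HET, rose by 1.64 (SE 0.33, limma adjusted p = 0.008) and was at 0.11 without them. The homeobox genes Dlx1, Dlx2, Dlx5 and Dlx6, which direct the formation of forebrain GABAergic interneurons, rose by 0.79, 0.57, 0.62 and 0.45. Pbx3, Tshz1 and Meis2, further homeobox and zinc finger factors, rose by 0.90, 0.51 and 0.49, and their changes were -0.07, -0.04 and -0.07 without the raised-bulb arrays. Calb2, the calcium-binding protein calretinin, had a change of 0.70 (limma adjusted p = 0.215), Scgn of 0.41, Trh of 0.62 and Zic1 of 0.43, and none of these 4 was called. Of the markers of sensory axons that enter the bulb, 1 of 3 was called: S100a5 ran from 4.25 to 4.79 in WT and from 4.54 to 9.14 in Hdac4HET and rose by 2.22 (SE 0.49, limma adjusted p = 0.0167), with 0.01 without the raised-bulb arrays. Omp and Cnga2, the defining genes of mature sensory neurons, had changes of 0.09 and -0.06 and were not called. Lgr5 and Shisa3, which were on none of these lists, rose by 1.17 (limma adjusted p = 0.00267) and 1.46 (limma adjusted p = 0.008) and were at 0.20 and 0.05 without the raised-bulb arrays. Their rises lay mostly on those same arrays, so that these smaller values are not a separate result either.

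**Figure D3:**
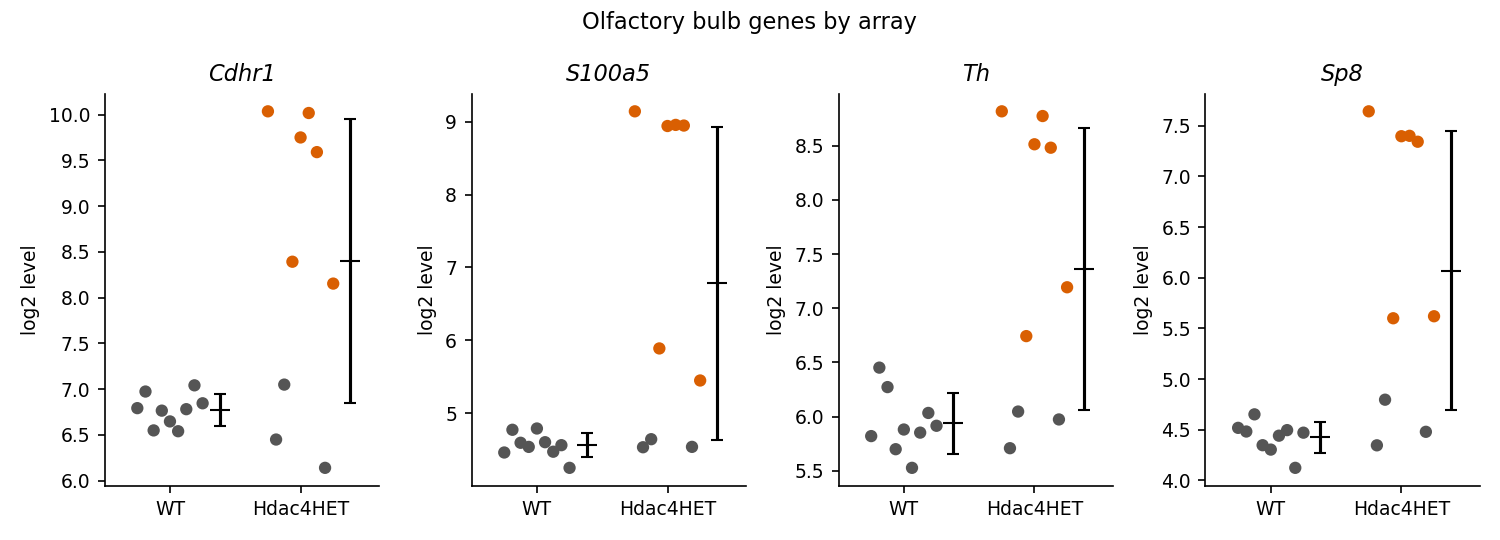
Log2 level of Cdhr1, S100a5, Th and Sp8 on each WT and Hdac4HET array; orange points are raised-bulb arrays and the bars are mean ± SD (n = 9). The grey Hdac4HET points lie in or near the WT range, and the orange points spread up to 10.04 for Cdhr1 and 9.14 for S100a5. These genes are among the markers that picked the raised-bulb arrays.

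Promoters of Doc2g and Sp8, called higher and at 0.09 and 0.11 without the raised-bulb arrays, are shown for their matches to 2 motifs that were searched on both strands. The motifs were CTA and TAG with any 4 bases between them, the outline of the MEF2 site, and TAATTA, the core bound by many homeodomain proteins, which do not overlap in these windows. The sequences are RefSeq's for GRCm38.p6, 250 bases before to 50 after the start, both on the plus strand, chr19:4003135-4003434 for Doc2g and chr12:118847309-118847608 for Sp8, with the match in capitals. In Doc2g the match to the MEF2 outline, with CACC between CTA and TAG, begins 33 bases before the start. In Sp8 the match to TAATTA begins 188 bases before the start.
Doc2g: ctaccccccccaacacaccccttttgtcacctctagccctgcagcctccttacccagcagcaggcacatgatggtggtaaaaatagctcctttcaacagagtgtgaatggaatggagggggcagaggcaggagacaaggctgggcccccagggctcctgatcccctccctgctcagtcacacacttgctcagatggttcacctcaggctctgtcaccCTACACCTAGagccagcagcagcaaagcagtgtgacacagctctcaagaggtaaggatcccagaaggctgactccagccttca
Sp8: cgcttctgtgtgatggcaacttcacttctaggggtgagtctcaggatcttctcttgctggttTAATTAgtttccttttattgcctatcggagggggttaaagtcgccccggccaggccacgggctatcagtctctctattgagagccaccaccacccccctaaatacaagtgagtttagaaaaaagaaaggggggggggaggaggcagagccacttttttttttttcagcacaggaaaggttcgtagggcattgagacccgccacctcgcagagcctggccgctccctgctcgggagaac
Of the 85 genes called higher, 61 matched a RefSeq promoter, with 89 promoters in all. The MEF2 outline was in 6 of these 89 (6.74%), in 3 of 27 promoters of the bulb markers (11.1%) and in 3.69% of all 32851 promoters. The 6 were those of 6430571L13Rik, Armc9, Doc2g, Hmgb2, Pde1c and Prss23. TAATTA was in 4 of the 89 (4.49%), in 1 of the 27 (3.7%) and in 5.29% of all. These are matches of letters and do not show binding. With the middle of the MEF2 outline left free, a match to it need not be a MEF2 site.

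Not all rises were smaller without the raised-bulb arrays: 27 of the 124 probe sets, from 22 genes, kept 80% or more of their change, while 40 kept between 20% and 80% and 57 kept less than 20%. Together with the falls that did the same, 25 genes with a known position kept 80% or more. Of these 25 genes, 7 were on chromosome 7 (28%) and 3 each on chromosomes 1, 6 and 8. Chromosome 7 holds 7.83% of the genes measured and 12.2% of the 90 called genes with a position. The genes on chromosome 7 were Kctd14, Rsf1, Aqp11, Far1, Knop1, Nav2 and Atp10a, chosen for description after their values were seen. Rsf1 starts 0.143 Mb and Aqp11 0.29 Mb from the start of Kctd14, and Far1 starts 16.1 Mb from it.

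Kctd14, which encodes a protein with a potassium channel tetramerisation domain, split the WT arrays. On its called probe set it was at 6.01, 6.47 and 5.97 on WT replicates 2, 6 and 9, and between 4.52 and 5.15 on the other 6. All Hdac4HET arrays were high, from 6.16 to 6.82, and Kctd14 rose by 1.25 (SE 0.31, limma adjusted p = 0.0339), with 1.26 (limma adjusted p = 0.469) without the raised-bulb arrays. Its other 3 probe sets had changes of -0.02, 0.20 and 0.43 and were not called. Rsf1, a chromatin remodelling subunit, was high on the same WT replicates, at 8.20, 8.86 and 8.34 on its called probe set against 6.80 to 7.28 on the others. Hdac4HET ran from 8.08 to 8.89, and Rsf1 rose by 1.02 (SE 0.28, limma adjusted p = 0.0497), with a change of 0.12 on its brightest probe set. Aqp11, an aquaporin of intracellular membranes, was lowest on those 3 WT replicates, at 8.22, 7.83 and 8.32, against 8.35 to 8.61 on the others. Hdac4HET ran from 7.66 to 8.23, and Aqp11 fell by 0.42 (SE 0.09, limma adjusted p = 0.0151).

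The mice with the R6/2 transgene were split in the same way for Kctd14 and Rsf1. Aqp11 was not split so in Dble::R6/2, where replicate 6, high for Rsf1, was at 8.28 and replicate 3, low for Rsf1, at 8.14. Rsf1 was at 8.22, 8.78, 8.91, 9.04 and 8.62 on R6/2 replicates 4, 6, 7, 8 and 9 and between 7.34 and 7.48 on the other 4, and the Kctd14 levels of the same 5 arrays, from 5.97 to 6.74, were above the 4.67 to 4.78 of the others. In Dble::R6/2, Rsf1 ran from 7.10 to 7.26 on replicates 1, 2, 3 and 7 and from 7.80 to 8.63 on the other 6. The change from R6/2 to Dble::R6/2 was 0.10 for Kctd14, -0.36 for Rsf1 and 0.10 for Aqp11. Within each of WT, R6/2 and Dble::R6/2 the levels of Kctd14 and Rsf1 thus ranged more widely than the mean difference between Hdac4HET and WT, and 9 of 9 Hdac4HET arrays lay at the high end for Kctd14 and Rsf1. All 17 measured genes within 1 Mb of Rsf1 gave 41 probe sets. Of these, 4 were higher and 2 lower at an adjusted p under 0.05 of any size, beside 1.43% of all probe sets. Those that passed were of Kctd14, Rsf1 and Aqp11, already described, and of Aamdc, at 0.16. The window was centred on Rsf1 after its values were seen. Which strain's DNA each mouse carried there is not given in the labels, and its part in these values was not tested. Far1, which makes the fatty alcohols of ether lipids, was high on WT replicates 6 and 9 (9.38 and 9.44, against 8.37 to 8.64 on the other 7) and not on replicate 2. Far1 ran from 9.25 to 9.90 in Hdac4HET and rose by 0.80 (SE 0.18, limma adjusted p = 0.0181), with 0.97 without the raised-bulb arrays.

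**Figure D4:**
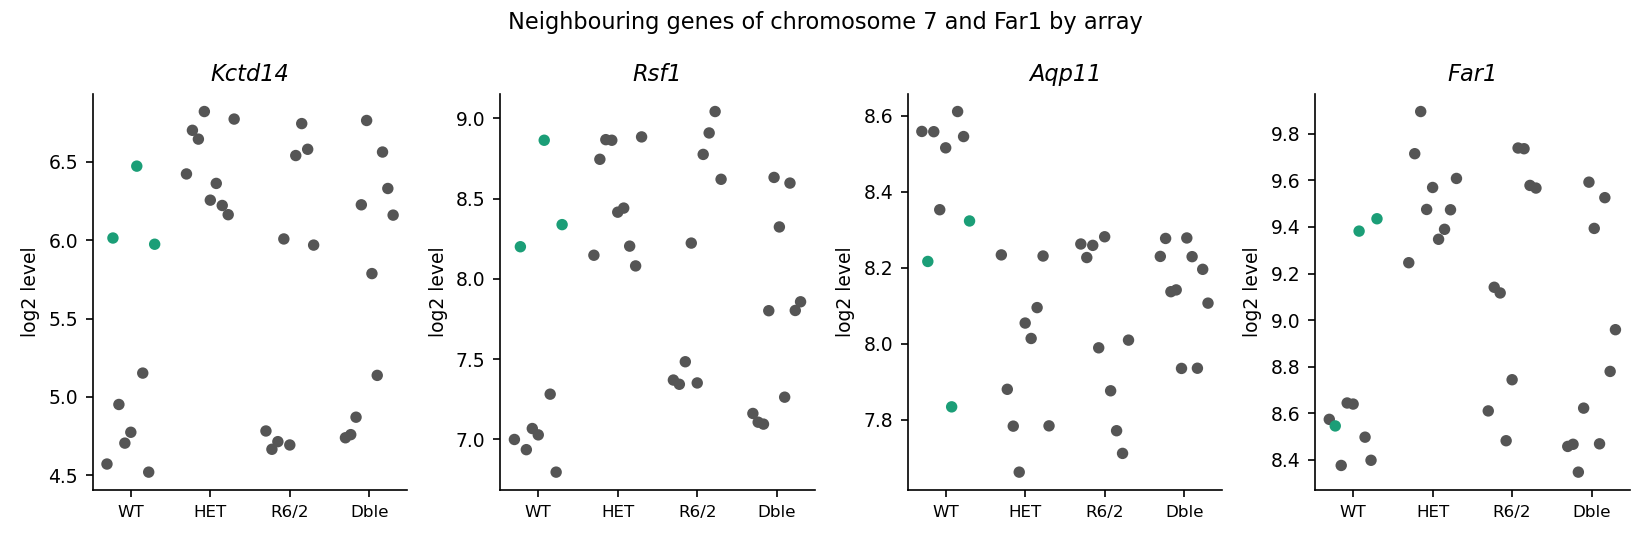
Log2 level of the called probe sets of Kctd14, Rsf1, Aqp11 and Far1 on each array of the 4 genotypes (HET, Hdac4HET; Dble, Dble::R6/2); green points are WT replicates 2, 6 and 9. Kctd14 and Rsf1 form a high and a low cluster in WT, R6/2 and Dble::R6/2, Hdac4HET lies in the high cluster (6.16 to 6.82 for Kctd14), and the green points are high for Kctd14 and Rsf1 and low for Aqp11.

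Elsewhere in the genome, Tuba8, an alpha-tubulin isoform, ran from 6.32 to 6.91 in WT with a median of 6.62, and from 6.87 to 7.38 in Hdac4HET with a median of 7.21. Tuba8 rose by 0.58 (SE 0.10, limma adjusted p = 0.0015), its change was 0.62 without the raised-bulb arrays, and in Dble::R6/2 against R6/2 it was -0.11. Hmgb2, a chromatin protein of dividing cells, ran from 6.57 to 6.95 in WT and from 7.03 to 7.30 in Hdac4HET, with no overlap, and rose by 0.40 (SE 0.09, limma adjusted p = 0.0147), with 0.34 without those arrays. Eya4, a transcriptional coactivator and phosphatase, ran from 5.53 to 6.21 in WT and from 6.21 to 6.68 in Hdac4HET and rose by 0.42 (limma adjusted p = 0.00938), with 0.47 without them. Genes that kept 80% or more of their change also included Cdkn1a, the cell cycle inhibitor p21, at 0.43, Mme, the peptidase neprilysin, at 0.44, Ido1, which degrades tryptophan, at 0.67, and Ncapd2, a condensin subunit, at 0.39. Prss23, a serine protease, was called at 0.48 on a probe set and at 0.40 (limma adjusted p = 0.0168) on another, which ends in _x_at. The latter ran from 8.33 to 8.61 in WT and from 8.63 to 9.09 in Hdac4HET. It kept just under 80% of its change, with 0.31 without those arrays. With 3 Hdac4HET arrays in that comparison, none of the genes of this paragraph passed the adjusted threshold.

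**Figure D5:**
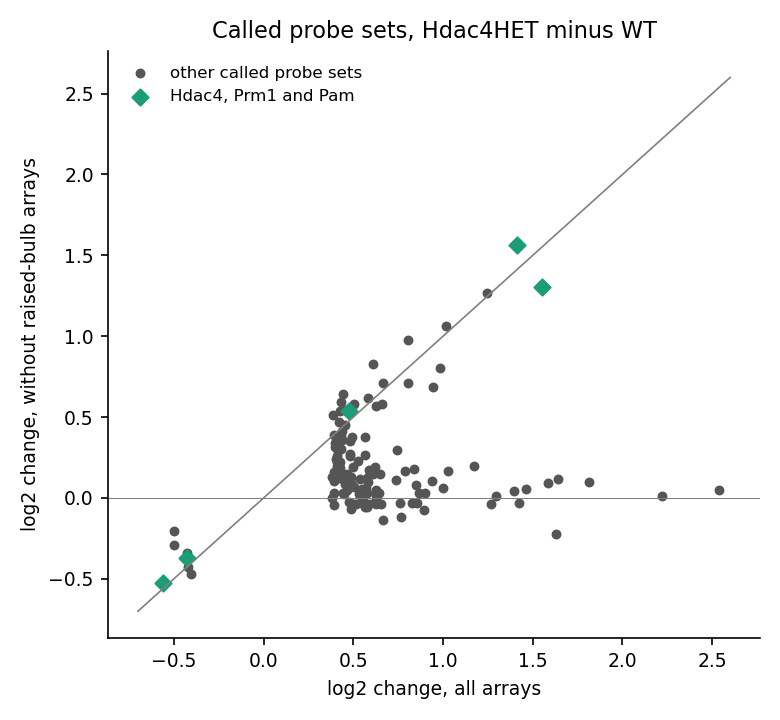
Log2 change of each of the 131 called probe sets with all arrays (x axis) and without the raised-bulb arrays (y axis); the diagonal marks equal values and green diamonds are Hdac4, Prm1 and Pam. The diamonds and some other probe sets lie near the diagonal, while many of the largest rises lie near 0 on the y axis.

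Only 7 probe sets were called lower, 2 of them for Hdac4. Besides Aqp11, Glra3, the alpha 3 subunit of the glycine receptor, ran from 8.24 to 8.80 in WT with a median of 8.73 and from 7.91 to 8.40 in Hdac4HET with a median of 8.27. Glra3 fell by 0.40 (SE 0.11, limma adjusted p = 0.0437), and its change was -0.47 without the raised-bulb arrays. Slc35a5, a nucleotide sugar transporter family member, fell by 0.50 (SE 0.13, limma adjusted p = 0.0424), with -0.29 without them. Pcnp, a nuclear protein, fell by 0.50 on 1 probe set (limma adjusted p = 0.0356), with -0.21 without them. The last was a probe set with no gene name, at -0.42.

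Lists for the cells of cortex itself gave medians close to 0. Genes of upper and deep layers had median changes of 0.08 over 9 and 0.05 over 14 measured members, and 0 were called in either list. Pcp4, a calmodulin regulator of deep layers, had a change of 0.20 (limma adjusted p = 0.0102), under the fold threshold, and ran from 12.90 to 13.19 in WT and from 13.19 to 13.40 in Hdac4HET, with a change of 0.16 (limma adjusted p = 0.452) without the raised-bulb arrays. Cortical interneurons (17 measured), astrocytes (18), oligodendrocytes (15) and microglia (18) had medians of 0.03, 0.00, 0.02 and -0.01, with 0 called in each. Over all genes 0.368% were called, a share at which lists this short seldom hold a called gene. The median over all genes was 0.00.

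Regions that border the cortex were looked at in the same way. Of 18 measured striatal genes 0 were called, beside 0.368% of all genes, and their median change was 0.28 with all arrays and 0.07 without the raised-bulb arrays. Their mean ran from 8.73 to 9.59 in WT and from 9.19 to 9.77 in Hdac4HET. Pdyn, prodynorphin of striatal projection neurons, had a change of 0.35 (limma adjusted p = 0.00649), under the fold threshold, and of 0.28 (limma adjusted p = 0.452) without those arrays. Migrating neuroblasts, which reach the bulb through the rostral stream, gave 0 of 8 called by 1 probe set per gene and a median of 0.20, with Dcx, their microtubule protein, at 0.39 (limma adjusted p = 0.0745) and Sox4, an SRY-box factor, at 0.37 (limma adjusted p = 0.00504). Their values without the raised-bulb arrays were 0.07 for the list, 0.03 for Dcx and 0.14 (limma adjusted p = 0.572) for Sox4. A dimmer Sox4 probe set was called with all arrays, at 0.42. The choroid plexus list had the lowest median, -0.64 over 7 genes, and -0.27 without the raised-bulb arrays, with 0 called. Ttr, the thyroid hormone carrier made by the choroid plexus, ran from 11.77 to 13.99 in WT and from 11.50 to 13.74 in Hdac4HET, a change of -1.03 (limma adjusted p = 0.21) with overlapping groups. The lists for hippocampus, thalamus and cerebellum had medians of -0.09, 0.08 and -0.08.

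Genes of neuronal signalling gave 0 members past the fold threshold. At any size, 2 of 19 glutamate receptors, 1 of 9 GABA-A receptor subunits, 0 of 26 potassium and sodium channels, 1 of 23 vesicle genes and 1 of 14 postsynaptic density genes were higher at an adjusted p under 0.05 and 0 were lower, beside 1.33% higher and 0.511% lower over all genes. Ionotropic and metabotropic glutamate receptors had a median of 0.02 over 19, and Grm4 and Grm8, group III metabotropic receptors, rose by 0.25 (limma adjusted p = 0.0401) and 0.19 (limma adjusted p = 0.0242), with 0.01 and 0.14 without the raised-bulb arrays. GABA-A receptor subunits had a median of -0.01 over 9, and Gabrd, the delta subunit of extrasynaptic receptors, rose by 0.22 (limma adjusted p = 0.0438), with 0.28 without those arrays. Potassium and sodium channels, vesicle genes and postsynaptic density genes had medians of 0.04, -0.02 and 0.00, and Syn3, a synapsin of vesicles, and Homer2, a postsynaptic scaffold, rose by 0.19 (limma adjusted p = 0.0358) and 0.26 (limma adjusted p = 0.0166), with 0.05 and 0.21 without those arrays. None of these 5 genes passed the adjusted p without the raised-bulb arrays in limma. Immediate early genes, which neuronal activity induces, had a median of 0.01 over 30 with 0 called, and 0.16 without the raised-bulb arrays.

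Housekeeping pathways were close to 0. Respiratory chain genes had a median of 0.04 over 35 measured, ribosomal protein genes 0.02 over 17, heat shock genes 0.03 over 22, interferon response genes 0.01 over 17 and cholesterol synthesis genes -0.01 over 16. In each list 0 were called, beside 0.368% of all genes. Htt, the endogenous huntingtin gene, had a change of 0.07 (limma adjusted p = 0.272), and Hip1, a huntingtin-interacting endocytic protein, rose by 0.23 (limma adjusted p = 0.00649), under the fold threshold, with 0.18 (limma adjusted p = 0.422) without the raised-bulb arrays.

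Whether the change with the null allele differed when the R6/2 transgene was present was tested as an interaction in the same fit. With all arrays 113 probe sets were called (0.251%), 31 higher and 82 lower in Dble::R6/2 minus R6/2 than in Hdac4HET minus WT. Without the raised-bulb arrays 1 was called, for Lipa, lysosomal acid lipase, at -0.78. Whether the change differed between labelled males and females gave 0 called (0%) in limma, with 1454 probe sets at an unadjusted p under 0.05. That comparison rests on labels that 4 of the 18 arrays went against.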

How the data were processed

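Cortical RNA was measured on Affymetrix mouse expression arrays. The labels number the arrays as replicates of a genotype, each with a sex, and p-values measure the spread between these arrays. The values are the log2 levels that the authors deposited for each probe set. The methods state that arrays of high NUSE were left out of their analysis, but not which, so all 18 arrays were used here. How the deposited log2 values were normalized was not given in the sources used here. Medians of the arrays were between 6.16 and 6.21, correlations within a genotype between 0.993 and 0.998, and 0 pairs of arrays were identical. The number of arrays limits the precision.

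Genes were named from the platform annotation: 34945 probe sets had 1 symbol, 932 several and 9160 none, and 34741 had a position. A gene stands by its probe set of highest mean over all arrays, unless a probe set is named. A group-means model over all 37 arrays was fitted with limma 3.58.1 (lmFit, eBayes with trend) in R 4.3.3, and p-values were adjusted by Benjamini-Hochberg over all probe sets. On simulated arrays the fit called 94% of probe sets changed by 0.5 and 100% of those changed by 0.75, 1 or 1.5 on the log2 scale in Hdac4HET against WT. The simulated noise was independent between all 37 arrays and of equal SD in every genotype, with no signal shared by the raised-bulb arrays. These shares therefore do not hold for probe sets of unequal spread, nor for the comparison with 3 Hdac4HET arrays. Figures were drawn with matplotlib 3.10.9 in Python 3.11.15. Promoters came from RefSeq.

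Named genes were the 10 largest rises and falls called, the largest called without the raised-bulb arrays, all histone deacetylase genes, genes called the same way on both backgrounds, called genes within 10 Mb of Hdac4, and members of 38 gene lists (503 of 555 genes measured). Kctd14, Rsf1, Far1, Aqp11, Tuba8, Prss23, Hmgb2, Eya4, Cdkn1a, Mme, Ido1, Ncapd2, Ampd2, Lipa, Pde1c, Pcnp and the neighbours of Hdac4 under the fold threshold were named after their values were seen. The members and lists were chosen with earlier results of these data known. Same-numbered WT and Hdac4HET arrays did not deviate together. Alternatives were quantile normalization, a filter on low levels, the 2 groups alone, the methods' t-test, labelled sex, replicate number or bulb marker mean as covariates, array weights, no _x_at or _s_at probe sets, no fold threshold, and leaving out arrays.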

Additional observations from a re-analysis of the deposited data

Results flagged for a closer look

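Among 296 groups of 9 arrays over the 148 named probe sets, 11 held a lowest or highest array whose gap to the next exceeded Dixon's critical share of the range of its group; chance alone gives this in about 1 group in 20. Hdac4HET replicate 8 was the lowest of its group for Dcx (7.70), Glra3 (7.91) and Grm8 (6.99). Hdac4HET replicate 3 was lowest for Inpp5d (5.71) and replicate 7 for Lemd1 (5.54). Hdac4HET replicate 2 was highest for Kif1a (9.25) and replicate 1 for Asb1 (8.28). In WT, replicate 6 was lowest for Doc2g (5.59), replicate 3 for Ifit2 (7.19), replicate 8 for Ttr (11.77) and replicate 1 for Eya4 (5.53).

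Over all 45037 probe sets the limma interaction passed an adjusted p of 0.05 for 436, and 113 of these (0.251%) also passed 1.3-fold. Many named probe sets were chosen for their change in Hdac4HET against WT, which the interaction subtracts. That choice favours interactions of the opposite sign, so the count among named probe sets is not a separate result. For 16 of the 148 named probe sets the interaction had an adjusted p under 0.05 over all probe sets, 11 of them by more than 1.3-fold. Of these 11, it was higher with the transgene for Aqp11, by 0.52 (limma adjusted p = 0.0393). It was lower for Far1 (-1.13, limma adjusted p = 0.0299), Tuba8 (-0.70, limma adjusted p = 0.0123), Mme (-0.66, limma adjusted p = 0.00878), Dlx2 (-0.64, limma adjusted p = 0.0483), Ncapd2 (-0.56, limma adjusted p = 0.04), Cdkn1a (-0.51, limma adjusted p = 0.0496), Ntn4 (-0.42, limma adjusted p = 0.0299) and Pdyn (-0.38, limma adjusted p = 0.04). The 2 probe sets of Sox4 gave -0.44 (limma adjusted p = 0.028) and -0.46 (limma adjusted p = 0.0301). All 11 had the sign opposite to their change in Hdac4HET against WT. In Dble::R6/2 against R6/2 itself, the changes of these 11 ran from -0.33 for Far1 to 0.10 for Aqp11. The 5 under that fold were Pam (0.25, limma adjusted p = 0.04), the second probe set of Hdac4 (-0.26, limma adjusted p = 0.0359), Grm8 (-0.26, limma adjusted p = 0.0375), Pde1c (-0.38, limma adjusted p = 0.0411) and Prkd1 (-0.22, limma adjusted p = 0.0449). The rise of Pam and the fall on that Hdac4 probe set were thus larger with the transgene, while the brightest Hdac4 probe set gave -0.07 (limma adjusted p = 0.527). Without the raised-bulb arrays none of the 16 passed an adjusted p of 0.05 in limma, while Far1 was at -1.31, Tuba8 at -0.76, Ncapd2 at -0.75, Aqp11 at 0.53 and Dlx2 at -0.19.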

How the results depend on the processing

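Hdac4 kept its direction and its call in every alternative, with changes between -0.60 and -0.52. The count of 131 called probe sets (124 higher, 7 lower) was 122 after quantile normalization and 127 with labelled sex in the fit. It was 77 (70 higher) among the brighter probe sets, of which fewer were tested, 26 (22 higher, 4 lower) with the 2 groups alone, 10 (8 higher, 2 lower) by the methods' t-test adjusted by Benjamini-Hochberg, and 52 (23 higher, 29 lower) with the bulb marker mean as a covariate. It was 4 (3 higher, 1 lower) without the raised-bulb arrays, 6 (5 higher, 1 lower) without the 6 arrays against their labelled sex (2 of them Dble::R6/2) and 4 (3 higher, 1 lower) without both sets. With array weights 15 were lower, and with no fold threshold 643 were called (427 higher, 216 lower). Leaving out each array in turn gave 73 (without Hdac4HET replicate 1) to 192 (without Hdac4HET replicate 2), 68 to 179 higher, and 4 (without WT replicate 1) to 14 (without WT replicate 8) lower; the cause was not tested. Among the 57 called probe sets that are named, 27 stayed called throughout this and 30 lost the call at least once, Rsf1 in 14 of 18, Ido1 in 13, Glra3 and Meis2 in 12, Slc35a5 in 11 and Kctd14 in 9. With the replicate number as a block 10 were called (8 higher, 2 lower). The numbers do not pair the arrays: same-numbered deviations correlated between -0.06 and 0.18, and only replicate 7 correlated best with its own number.

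Without the raised-bulb arrays the sign turned for Cdhr1 (-0.22), Pbx3 (-0.073), Th (-0.030), Tshz1 (-0.036) and Meis2 (-0.067), and without both sets for Cdhr1 (-0.21), Pbx3 (-0.056), S100a5 (-0.027), Th (-0.033), Tshz1 (-0.028) and Meis2 (-0.065). All of these genes are among the bulb markers that picked the raised-bulb arrays. The sex comparison, at 0 calls, gave 2 without the raised-bulb arrays and 2 without both sets, where few Hdac4HET arrays are left. The interaction, at 113, gave 283 with array weights, 436 with no fold threshold, 1 without the raised-bulb arrays, 3 without the arrays against their labelled sex and 0 without both sets (limma).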
